A study of Mus musculus with 6 samples.

Results

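The regions described here are stretches of mouse chromatin that gave an estrogen receptor alpha (ERα) CUT&RUN peak in every library of the series and that lie close to the ends of at least 2 genes. CUT&RUN uses an antibody to bring micrococcal nuclease to a chromatin protein in isolated nuclei, and the DNA cut free around that protein is sequenced. The nuclei came from the limbic system of the brain of adult C57/BL6 males that had been gonadectomized at 10 to 12 weeks of age, vehicle and estradiol animals alike. At 3 weeks after surgery, a subcutaneous dose of 5 µg estradiol benzoate (3 libraries) or corn oil as the vehicle (3 libraries) was given 4 h before nuclei were isolated. For replicate 3 of both groups the tissue tag gives only brain, with limbic system as the source, and no strain tag is given. The whole tissue was used, so a region's signal can come from any of its cell types, and fewer positive cells cannot be told apart from less signal per cell. The labels do not say whether libraries came from separate animals, so the p-values below reflect library-to-library spread alone, and part of it may be technical.

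The members were chosen by the measured peaks: overlapping or touching peaks of the 6 lists were merged, and a region was kept if all 6 lists had a peak in it and if it lay within 1000 bp of an end of 2 or more protein-coding gene spans. The 6 lists held 5421, 13717 and 20541 peaks (vehicle 1, 2 and 3) and 11082, 14123 and 17558 peaks (estradiol 1, 2 and 3). They merged into 39374 regions on mm10, of which 2863 were present in all 6 libraries and 493 met the full rule. These 493 are 17.2% of the constant regions and 1.25% of all regions. They were 77 to 706 bp wide, with a median of 232 bp, and touched 950 genes in 477 distinct pairs of closest genes. Of these pairs, 14 held 2 regions each, and Cbx5/Hnrnpa1, which encode a heterochromatin protein and an RNA-binding protein, held 3. Another 1568 constant regions lay near an end of 1 gene only, 456 lay inside genes and 346 outside them.

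Genes that start close together and are read away from each other share what is called a bidirectional promoter. Such promoters are common in mammals, are usually rich in CG dinucleotides and often lack a TATA box, and many serve genes of DNA repair, the cell cycle, mitochondria and other functions needed in most cells. Replication-dependent histone genes, which lie in clusters and encode the core and linker histones, are a classic case: many H2a and H2b genes are paired head to head. ERα is a nuclear receptor that binds the estrogen response element, an inverted repeat of GGTCA and, on the same strand, TGACC with 3 free bases between them. NF-Y, a trimeric factor found at many promoters of both kinds, binds the CCAAT box.

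The sequences of 10 regions are shown because they span the range of what was measured. They are the plus strand, 5′ to 3′, from the RefSeq promoter table of GRCm38.p6, which shares its coordinates with mm10. Capitals mark every CCAAT box, written CCAAT on this strand or ATTGG where it lies on the other. The first 5 are among the 10 members with the highest peaks: Recql/Golt1b (chr6:142387050-142387236), Wbp1/Ino80b (chr6:83121431-83121708), Cct7/Pradc1 (chr6:85451269-85451539), Ndufaf2/Ercc8 (chr13:108158624-108158771) and the histone pair H2ac22/H2bc22 (chr13:21787239-21787511). Mrps12/Sars2 (chr7:28741776-28742000) and Hspe1/Hspd1 (chr1:55087987-55088271) are textbook bidirectional promoters. Hmmr/Nudcd2 (chr11:40733450-40733662) holds 5 boxes. Vmac/Ndufa11 (chr17:56716973-56717126) and Senp8/Myo9a (chr9:59750613-59750864) had higher and lower ranks after estradiol, in that order.
Recql/Golt1b: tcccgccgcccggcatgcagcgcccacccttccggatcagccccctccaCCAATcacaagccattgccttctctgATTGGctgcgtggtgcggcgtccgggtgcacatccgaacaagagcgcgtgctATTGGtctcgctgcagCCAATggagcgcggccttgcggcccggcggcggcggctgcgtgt
Wbp1/Ino80b: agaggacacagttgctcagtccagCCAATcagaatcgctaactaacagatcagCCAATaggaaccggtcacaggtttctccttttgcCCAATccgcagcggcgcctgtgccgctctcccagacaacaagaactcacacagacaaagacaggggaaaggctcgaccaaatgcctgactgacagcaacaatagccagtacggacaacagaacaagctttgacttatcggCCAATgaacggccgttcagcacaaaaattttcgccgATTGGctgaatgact
Cct7/Pradc1: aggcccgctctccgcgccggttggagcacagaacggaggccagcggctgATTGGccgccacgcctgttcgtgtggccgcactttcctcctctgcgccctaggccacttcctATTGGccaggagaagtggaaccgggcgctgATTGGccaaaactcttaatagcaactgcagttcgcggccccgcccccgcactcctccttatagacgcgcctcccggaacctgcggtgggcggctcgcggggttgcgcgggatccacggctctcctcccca
Ndufaf2/Ercc8: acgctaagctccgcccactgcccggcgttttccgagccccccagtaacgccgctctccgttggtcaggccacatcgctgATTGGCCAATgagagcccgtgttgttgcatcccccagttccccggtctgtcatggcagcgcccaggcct
H2ac22/H2bc22: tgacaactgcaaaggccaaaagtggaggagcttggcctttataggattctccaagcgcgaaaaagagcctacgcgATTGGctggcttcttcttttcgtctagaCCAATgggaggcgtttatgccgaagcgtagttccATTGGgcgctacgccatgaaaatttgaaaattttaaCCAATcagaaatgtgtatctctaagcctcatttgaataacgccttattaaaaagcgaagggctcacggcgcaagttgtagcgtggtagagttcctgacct
Mrps12/Sars2: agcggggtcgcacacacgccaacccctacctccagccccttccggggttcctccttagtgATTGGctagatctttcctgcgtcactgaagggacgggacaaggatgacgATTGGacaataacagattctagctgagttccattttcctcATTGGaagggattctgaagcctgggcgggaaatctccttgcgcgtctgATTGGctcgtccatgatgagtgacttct
Hspe1/Hspd1: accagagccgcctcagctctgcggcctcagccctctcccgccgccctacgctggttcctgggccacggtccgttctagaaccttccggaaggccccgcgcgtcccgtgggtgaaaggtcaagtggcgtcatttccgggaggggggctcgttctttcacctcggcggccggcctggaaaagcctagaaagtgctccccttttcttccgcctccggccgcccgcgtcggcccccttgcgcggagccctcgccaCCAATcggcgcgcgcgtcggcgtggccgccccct
Hmmr/Nudcd2: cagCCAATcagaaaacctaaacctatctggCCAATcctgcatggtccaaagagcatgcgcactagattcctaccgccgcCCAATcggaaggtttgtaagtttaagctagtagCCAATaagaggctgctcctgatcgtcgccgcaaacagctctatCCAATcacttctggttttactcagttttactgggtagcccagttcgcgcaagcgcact
Vmac/Ndufa11: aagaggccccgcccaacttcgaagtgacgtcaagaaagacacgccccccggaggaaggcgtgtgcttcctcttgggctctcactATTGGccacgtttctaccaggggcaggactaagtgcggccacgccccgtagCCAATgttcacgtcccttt
Senp8/Myo9a: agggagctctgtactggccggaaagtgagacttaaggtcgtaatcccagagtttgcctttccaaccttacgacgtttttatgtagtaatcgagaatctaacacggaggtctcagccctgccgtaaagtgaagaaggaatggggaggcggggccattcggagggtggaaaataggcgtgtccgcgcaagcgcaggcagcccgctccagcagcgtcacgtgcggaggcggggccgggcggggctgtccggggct

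The first 5 of these sequences hold 4, 5, 3, 2 and 4 boxes. In the histone pair H2ac22/H2bc22 the starts of successive boxes are 28, 34 and 36 bases apart, and in Hmmr/Nudcd2 they are 27, 49, 33 and 43 bases apart. Hspe1/Hspd1 holds 1 box and Senp8/Myo9a holds 0. None of the 10 contains a full estrogen response element.

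Position and strand were examined first, since the rule used neither the strand nor which end of a gene was close. The reference gave a strand for the 2 closest genes of 382 members, and 302 of these (79.1%, exact 95% binomial interval 74.6 to 83%) lay at a pair of starts read away from each other. Among all 3129 close pairs of protein-coding gene ends (at most 2000 bp apart) with a known strand, head-to-head pairs made up 32.1%. A further 77 members (20.2%) lay between the finish of a gene and the start of the next, an arrangement that made up 31.2% of close pairs. Pairs of finishes made up 33.5% of close pairs but were the closest pair of 0 of 382 members, which allows a share of up to 0.785% by a limit of 3 counts. The interval and the limit cover counting error only. Seen from the genes, 291 of 1005 head-to-head pairs (29%) had a member nearby, against 80 of 975 head-to-tail pairs (8.21%) and 2 of 1049 tail-to-tail pairs (0.191%). With peaks of any number of libraries counted, these shares were 73.7%, 26.7% and 2.76%. Nearness to starts was not particular to members. Of 1309 constant regions near 1 gene whose nearest end was known as start or finish, 98.6% had a start. Head-to-head pairs offer only starts close by and tail-to-tail pairs only finishes. The part of this in the orientation shares was not tested.

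**Figure D1:**
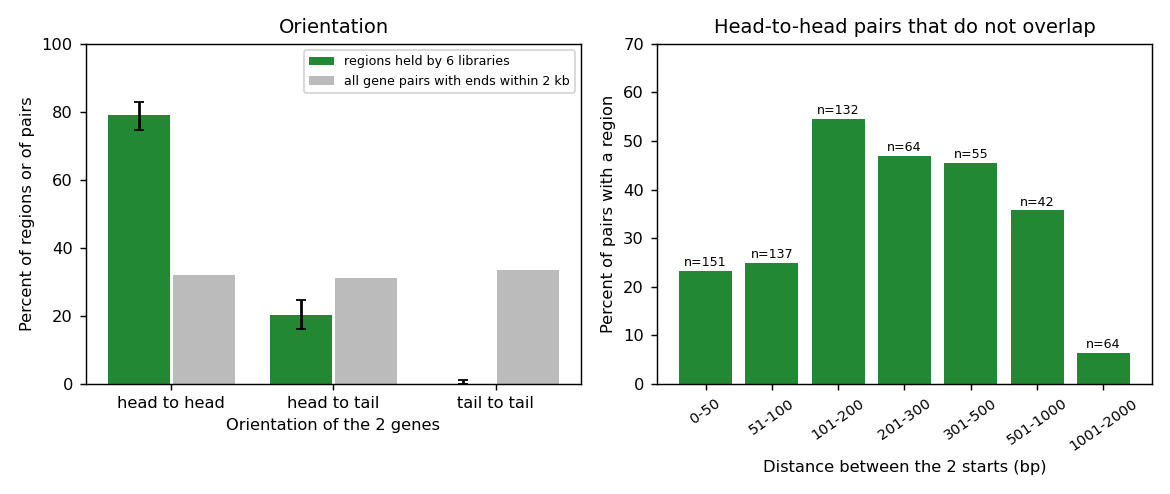
Orientation of the 2 closest gene ends at the regions held by all 6 libraries and in the genome. On the left, bars give the percent of 382 members with known strand (error bars, exact 95% interval) and of 3129 close pairs, 79.1% and 32.1% of them head to head; on the right, bars give the percent of non-overlapping head-to-head pairs with a member by distance between the starts in bp, highest (54.5%) at 101 to 200 bp.

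Not every summit lay between the gene ends. In 265 of 493 (53.8%) the median summit lay between the positions of the 2 closest gene ends, and in the others it lay outside that stretch. Where the gene spans overlap (109 members), the stretch between the ends can itself lie inside genes. Where the spans of a head-to-head pair were apart by 100 bp or more (148 members), the summit lay between the starts in 118 (79.7%), and within 100 bp of a start in 117. In head-to-tail pairs, 66 of 77 summits were nearer the start (median distance 99 bp) than the finish (median 478 bp). Wbp1/Ino80b, the third in height, is of this kind: its peak stood 38 bp from the start of Wbp1, which encodes a WW-domain binding protein. Ino80b, which encodes a subunit of a chromatin remodelling complex, finishes 304 bp upstream of it. Over all members the median distance from the summit to the nearest gene end was 65 bp, against 85.5 bp for regions near 1 gene. The summit was within 100 bp of a listed start in 58.5% of members and in 44% of those single-gene regions. By the rule, members have ends of 2 or more genes in reach, which by itself shortens the distance to the nearest. These values therefore do not show that summits sit more tightly at members.

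Among head-to-head pairs that do not overlap, how often a member was found varied with the distance between the starts. A member lay at 23.2% (35 of 151) where the starts were 0 to 50 bp apart and at 24.8% (34 of 137) at 51 to 100 bp. The share was 54.5% (72 of 132) at 101 to 200 bp, 46.9% (30 of 64) at 201 to 300 bp and 45.5% (25 of 55) at 301 to 500 bp. It was 35.7% (15 of 42) at 501 to 1000 bp and 6.25% (4 of 64) at 1001 to 2000 bp, where the 1000 bp window of the rule itself limits the count. Pairs whose spans overlap held a member in 76 of 360 cases (21.1%) and did not show this pattern. By the length of the overlap, their shares were 19% at 0 to 50 bp, 29% at 51 to 100 bp, 15.8% at 101 to 200 bp and 35.3% at 201 to 300 bp. They were 23% at 301 to 500 bp, 21.1% at 501 to 1000 bp and 4.44% at 1001 to 2000 bp.

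The 1000 bp limit is arbitrary. Among the members closest to it were Fbrs/Prr14 and Adam8/Tubgcp2, with the second gene end 986 and 992 bp away. Just beyond it were regions at Polr2a/Slc35g3, Slc25a25/Naif1 and, apart from the member there, H3c13/H2bc18, at 1018, 1028 and 1032 bp. In all, 11 members had the second end at 900 bp or more, and 15 constant regions missed the limit by 100 bp or less.

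Being near several gene ends went with being found in more libraries, a comparison given as a description because presence in 6 lists was part of the rule. Of 1725 regions near 2 or more genes, 28.6% were present in all 6 libraries and 23.2% in 1. The same shares were 20.1% and 32.8% for 7810 regions near 1 gene, and 3.14% and 67.3% for 14505 regions inside genes.

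Peak height was measured by the deposited −log10 q-value of the highest peak of each library in the region. It was turned into a percentile among the same 2863 constant regions, so that 50 is the middle of a library and lists of different depth could be set side by side. Each summit's fragment number follows from its deposited fold enrichment and p-value (an estimate). It ran from 4 to 165 over the members. The members' median was 9, 13 and 18 fragments in vehicle 1, 2 and 3 and 12, 14 and 14 in estradiol 1, 2 and 3. The regions near 1 gene had medians of 8, 12 and 17, and of 11, 13 and 13. The median percentile of the members was 57.1, 52.9 and 54.4 under vehicle and 56.3, 57.7 and 53 under estradiol. For regions near 1 gene it was 51.4, 51.9 and 51.1, and 52.3, 54 and 50.1. The members were thus higher in 6 of 6 libraries, by 3.42 percentile points on average (range 0.978 to 5.71; mean 55.2 ± 2.11 against 51.8 ± 1.32, SD, n = 6). An exact two-sided sign-flip permutation test over the libraries gave p = 0.0313, which is the smallest that 6 libraries can give. Without the regions at histone genes the difference was 2.49 points with the same p.

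**Figure D2:**
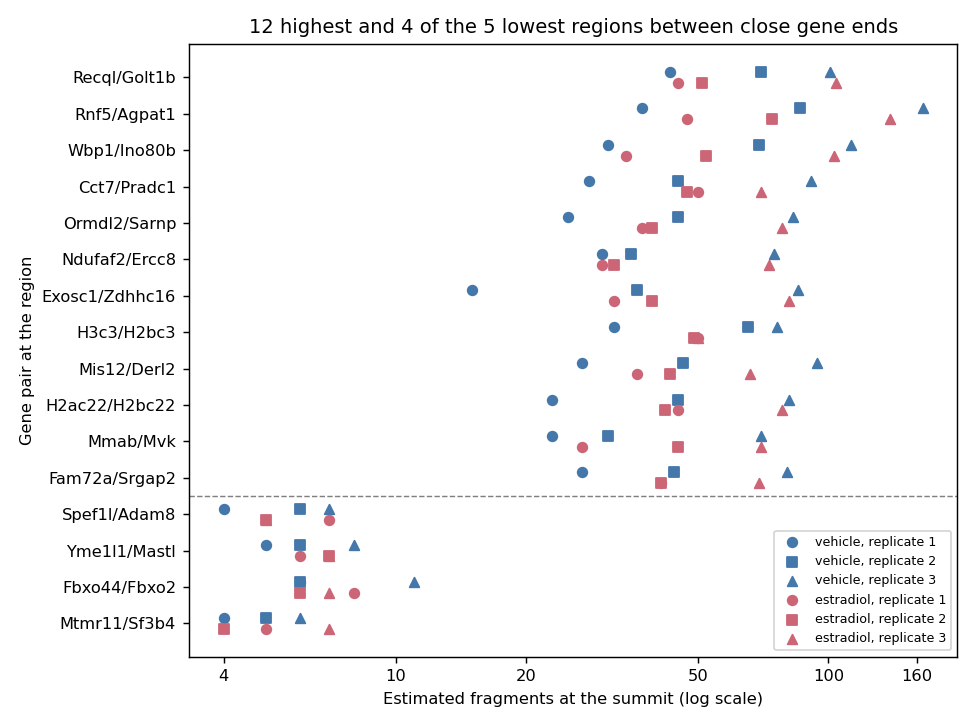
Fragments at the summit in each of the 6 libraries for the 12 members with the highest and, below the dashed line, 4 of the 5 with the lowest mean height, on a log axis. Colours mark the treatment and shapes the replicate; Recql/Golt1b, at the top, had 43 to 104 fragments and Mtmr11/Sf3b4, at the bottom, 4 to 7.

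The highest member, Recql/Golt1b, lies between the starts of a RecQ family DNA helicase gene and of a Golgi vesicle transport gene, 111 bp apart. It had 43, 70 and 101 fragments under vehicle (replicates 1, 2 and 3, the order kept below) and 45, 51 and 104 under estradiol. Its mean height percentile was 99.5, and the groups overlapped. Rnf5/Agpat1 (chr17:34603602-34604253), near a gene for an endoplasmic reticulum ubiquitin ligase and one for a phospholipid synthesis enzyme, had 37, 86 and 165 fragments in vehicle and 47, 74 and 139 after estradiol. The third, Wbp1/Ino80b, had 31, 69 and 113 against 34, 52 and 103. In all 3 regions, replicate 3 had the most fragments of each group.

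Cct7/Pradc1, next in order, lies before the start of the gene of a subunit of the cytosolic chaperonin and had 28, 45 and 91 fragments in vehicle and 50, 47 and 70 after estradiol. Ormdl2/Sarnp, at a regulator of sphingolipid synthesis and an mRNA export factor, had 25, 45 and 83 against 37, 39 and 78. Ndufaf2/Ercc8, a complex I assembly factor beside a transcription-coupled repair gene, had 30, 35 and 75 against 30, 32 and 73. The groups overlapped at each of these. The list of the 12 highest goes on with Exosc1/Zdhhc16 (an RNA exosome subunit and a palmitoyltransferase), H3c3/H2bc3, Mis12/Derl2 (a kinetochore protein and a factor of protein degradation at the endoplasmic reticulum), H2ac22/H2bc22, Mmab/Mvk (cobalamin and mevalonate metabolism) and Fam72a/Srgap2. Their mean percentiles ran from 97.1 to 97.7.

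At the other end of the range stood Mtmr11/Sf3b4, Fbxo44/Fbxo2, Yme1l1/Mastl and Spef1l/Adam8, with mean percentiles of 4.91, 6.66, 7.84 and 8.03. Mtmr11/Sf3b4, near the gene of a splicing factor 3b subunit, had 4, 5 and 6 fragments in vehicle and 5, 4 and 7 after estradiol. Such counts are close to the smallest that was called a peak, so the lowest members are constant only in the sense that each list has an entry there.

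Many of the highest members lay at histone genes. Of 64 replication-dependent histone genes in the reference, 32 (50%) had a member near an end, against 950 of 21887 protein-coding genes (4.34%). Of the 52 histone genes with another gene end close by, the share was 61.5%, against 13.5% of 7048 such genes. They shared 19 regions, 16 of them in the cluster on chromosome 13 between 21716214 and 23761295. Their median height percentile was 91.3, against 51.5 for the other members, and 10 of the 50 highest members were among them. The median histone region had 21, 36 and 37 fragments in vehicle and 41, 27 and 29 after estradiol, against 9, 13 and 18 and 11.5, 14 and 14 for the other members. The histone values of both groups overlapped, and were above those of the other members in every library.

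Height varied widely among the histone regions. The highest was an H2b and H3 region, H3c3/H2bc3, with a mean percentile of 97.6, and 2 more of that kind, both at H2bc9/H3c7, had 96.6 and 91.3. The 7 H2a and H2b pairs on chromosome 13 with known head-to-head strand, with starts 164 to 249 bp apart, had a median height percentile of 95.6. H2ac22/H2bc22 had 23, 45 and 81 fragments in vehicle and 45, 42 and 78 after estradiol. H2ac15/H2bc15 (chr13:21753838-21754073) had 30, 38 and 62 against 41, 30 and 50. H2bc7/H2ac7 (chr13:23574194-23574448) had 39, 50 and 85 against 49, 39 and 67. Fragment numbers of the groups overlapped in each, although the percentiles of H2ac22/H2bc22 did not, with estradiol 1.69 points above vehicle. The 2 H2a and H3 regions in head-to-tail order, H2ac7/H3c4 and H2ac4/H3c2, had mean percentiles of 40.5 and 40.3, and at H2ac4/H3c2 the estradiol percentiles were all above those of vehicle (10, 15 and 17 against 21, 15 and 21 fragments). H4c1/H3c1, beside an H4 gene, had 26.1. The regions at H2bc6/H1f4, which includes a linker histone gene, had 81.6 and 19.1. H2ac21/H2ac20 on chromosome 3 was the lowest of the histone regions, with 15.9. The H2a and H2b region H2ac20/H2bc21 on chromosome 3 had 46.5, and the H2b and H3 region H3c13/H2bc18 there had 64.9. Histone genes are near-identical copies, and the placement of reads with several matches is not given in the sources at hand. Of 12 histone regions whose whole sequence was in the promoter table, 0 shared an exact stretch of 40 bases with another place in the promoter windows, and so did 0 of 235 other members. Only these windows were searched, so copies elsewhere in the genome would be missed. The search does not show that reads at histone genes had a single match.

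The other gene lists held smaller shares. DNA repair genes had 11 of 60 (18.3%) at a member, including Ercc8, Brca1, Xrcc3 and Fancf. Chaperones had 6 of 29 (20.7%), cilium genes 9 of 51 (17.6%), mitotic genes 9 of 53 (17%) and splicing genes 7 of 48 (14.6%). DNA replication genes had 6 of 44 (13.6%), transfer RNA synthetases 5 of 37 (13.5%) and cytosolic ribosomal proteins 11 of 84 (13.1%). Mitochondrial ribosomal proteins had 8 of 78 (10.3%), oxidative phosphorylation 8 of 82 (9.76%), the circadian clock 2 of 22 (9.09%) and the proteasome 3 of 39 (7.69%). All these shares are above the 4.34% of all protein-coding genes. Genes of several of these lists often have a close neighbour, though, and of genes that do, 13.5% had a member. On that footing the mitotic list stood at 45%, cilia at 36%, DNA repair at 26.2% and oxidative phosphorylation at 15.4%. These are counts of list genes, without a test.

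Heights within a list covered a wide range. The mean percentile had a median of 34.4 for regions of the cytosolic ribosome list (16.4 to 75.5), 71.9 for DNA repair (11.3 to 98.2) and 55.9 for mitotic genes (31.7 to 90.8). The examples that follow were named for being high in their lists. Hmmr/Nudcd2, at the gene of a mitotic spindle protein, had 9, 28 and 62 fragments in vehicle and 20, 33 and 62 after estradiol. Cdca8/9930104L06Rik, at a subunit of the chromosomal passenger complex, had 7, 18 and 46 against 15, 33 and 53. Xrcc3/Zfyve21, at a homologous recombination gene, had 12, 19 and 38 against 18, 18 and 33. Vehicle and estradiol fragments overlapped for all 3. Car11/Dbp, where Dbp encodes a clock-controlled transcription factor, had 21, 40 and 45 against 22, 36 and 46, and Rps18/Vps52, at a small ribosomal subunit gene, had 10, 14 and 28 against 16, 28 and 24. The fragments overlapped here as well, but the percentiles of Rps18/Vps52 did not, with estradiol 17.9 points above vehicle.

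Of 20 genes known from textbook bidirectional promoters, 10 had a member, in 5 pairs. Mrps12/Sars2, which encode a mitochondrial ribosomal protein and the mitochondrial seryl-tRNA synthetase, had 8, 20 and 49 fragments in vehicle and 16, 19 and 33 after estradiol. Hspe1/Hspd1, the mitochondrial chaperonin pair, had 11, 11 and 19 against 11, 9 and 11. Mcm4/Prkdc, a replicative helicase subunit and a kinase of DNA end joining, had 6, 12 and 12 against 12, 8 and 8. Their mean percentiles were 79.6, 49.8 and 34, and all overlapped between groups. At Brca1/Nbr1 the summit was not between the starts but 671 bp from the nearest gene end, inside Nbr1. It had 11, 22 and 34 fragments against 27, 22 and 33. The fifth pair, Paics/Ppat, encodes enzymes of purine synthesis and had a mean percentile of 31.1.

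Genes that answer to estrogen or to neuronal activity were not among the members. None of 23 estrogen-induced genes in the reference, of 21 activity-induced genes, of 13 neuron markers and of 23 glial and vascular markers had one. Only 1, 2, 3 and 5 of these genes have another gene end close by, so most of these genes could not meet the rule. Among single genes outside these lists, Agrp, which encodes a melanocortin receptor antagonist of feeding neurons, was chosen for mention after its values were seen. Its region, Atp6v0d1/Agrp (chr8:105565992-105566283), lies 70 bp from the start of Atp6v0d1, a proton pump subunit gene, and the reference gives no strand for Agrp. It had 13, 18 and 26 fragments in vehicle and 13, 21 and 25 after estradiol, and the groups overlapped.

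Sequence was read from the 300-base windows around listed starts (250 bases before to 50 after), which exist for 17492 of 21887 genes. A window was counted if it held any match, on either strand. The CCAAT box was found in 61.7% of 697 windows of member genes and in 63.3% of 1258 windows at regions near 1 gene. It was found in 32.6% of 521 windows of head-to-head genes without any peak region, and in 39.2% of all windows. At least 2 boxes were present in 37%, 41.1%, 10.4% and 13.5% of these windows. The ETS family motif CCGGAAG was present in 24% of member windows, 17.2% at single-gene regions, 18.8% of head-to-head windows without a region and 11.9% of all. The GC-box GGGGCGG was in 41%, 50.9%, 40.1% and 31.1%. The CCAAT share was thus about the same at members and at single-gene regions, and lower in the windows of the other groups. Median GC content was 60.3%, 61.3%, 59.3% and 56.3% in the same order, and its part in the motif shares was not tested.

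Motifs of the receptor itself were rare. The single-arm nuclear receptor motif AGGTCA was in 8.61% of member windows, 10.3% of windows at single-gene regions, 15.9% of head-to-head windows without a region and 14.5% of all windows. The full estrogen response element was in 10 of 17492 windows (0.0572%) and in 0 of 697 member windows. Over the 405 members with a window this allows a share of up to 0.741%, and variants of the element were not searched. The TATA box TATAAA was in 7.17% of member windows and 13.3% of all, but in 66.7% of the 27 windows of histone genes. All 27 of these held a CCAAT box, with a mean of 3.11 per window, and their median GC content was 43.7%.

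Other promoter motifs were found in few member windows. The E-box CACGTG was in 9.33% (7.91% of all windows), the E2F motif TTCCCGCC in 5.31% (2.94%), the YY1 motif AAGATGGCG in 5.31% (1.92%) and the CREB motif TGACGTCA in 5.16% (2.33%). The NRF1 motif GCGCATGCG was in 4.3% (2.41%), the AP-1 motif TGANTCA in 2.87% (7.03%), the BANP core CTCGCGAG in 2.44% (1.31%) and the ZNF143 core ACTACAATT in 1.29% (0.543%). The CHR element TTTGAA of cell cycle genes was in 12.9% (16.5%), and in 66.7% of the histone windows. The full estrogen response element includes the letters of GGTCA, which the single-arm motif AGGTCA also holds, so those 2 overlap.

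**Figure D3:**
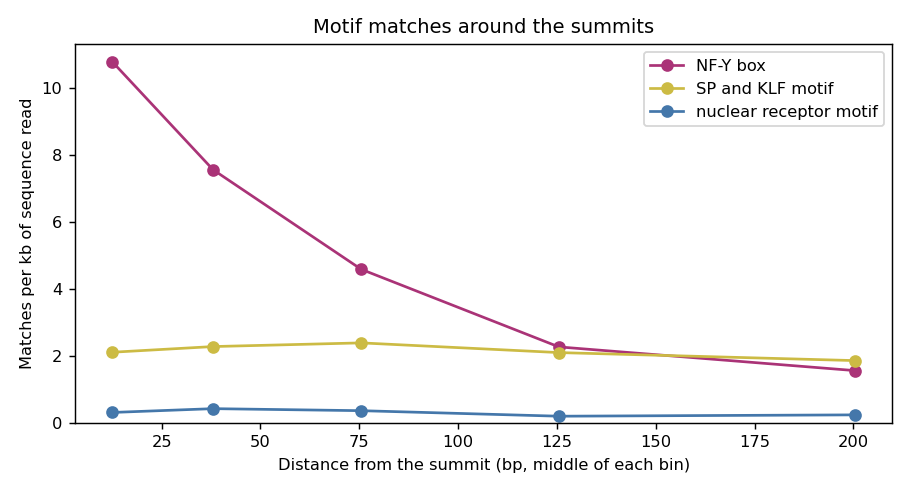
Matches per kb of readable sequence against the distance from the region's median summit, for the NF-Y box, the SP and KLF motif and the nuclear receptor motif, plotted at the middle of each distance bin. The NF-Y box falls from 10.8 per kb within 25 bp of the summit to 1.56 per kb at 151 to 250 bp, while the SP and KLF motif stays between 1.86 and 2.39.

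The boxes lay near the summits. There were 10.8 CCAAT matches per kb within 25 bp of the median summit, 7.57 at 26 to 50 bp, 4.59 at 51 to 100 bp, 2.27 at 101 to 150 bp and 1.56 at 151 to 250 bp. GGGGCGG, also a motif of promoters, showed 2.11 per kb within 25 bp and 1.86 at 151 to 250 bp. For the 359 members with the whole stretch readable, 203 (56.5%, exact 95% interval 51.2 to 61.7%) had a box within 50 bp of the summit. Stretches of the same size at fixed places from 198 to 3 bp before the start of all genes held one in 14.5 to 22.4% of cases. Windows of all genes also held the box less often than member windows (39.2% against 61.7%). The comparison therefore mixes nearness to the summit with the box content of the promoters. The share of members was 54.9 to 57% with the summits of any 1 library, and 54.8% without histone regions. The share was similar in the other classes of constant region: regions near 1 gene stood at 58.2% (of 1004), regions inside genes at 57.1% (of 147) and regions outside genes at 54.5% (of 22), all of them cases that happen to fall in a promoter window.

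In 100 members read whole that had 2 or more, the median distance between the starts of neighbouring boxes was 39 bases (quartiles 29 and 53), over 193 distances. The width of a region limits how far apart its boxes can be.

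**Figure D4:**
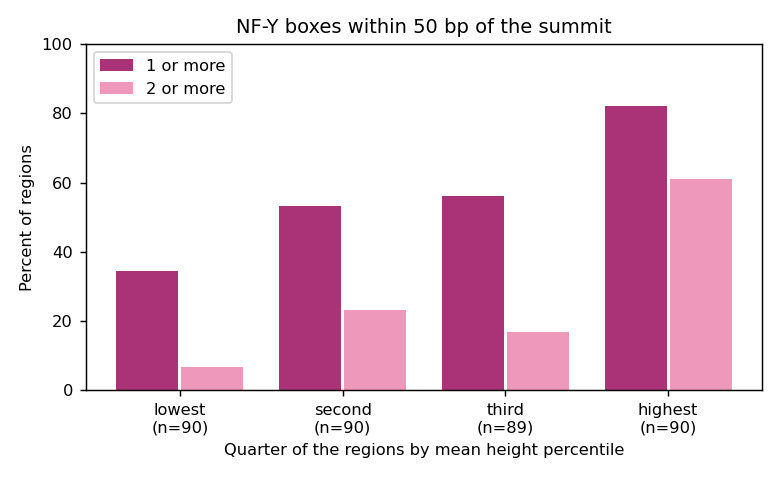
Percent of members with 1 or more, and with 2 or more, NF-Y boxes within 50 bp of the summit, in 4 groups of 89 or 90 readable members ordered by mean height percentile. The share with 1 or more goes from 34.4% in the lowest group to 82.2% in the highest.

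Higher members held more boxes. In 4 groups of 89 or 90 readable members, ordered from the lowest to the highest, 34.4%, 53.3%, 56.2% and 82.2% had a box within 50 bp of the summit. At least 2 boxes were there in 6.67%, 23.3%, 16.9% and 61.1%. By the boxes anywhere in the region, the median height percentile was 40.8 with 0 boxes (124 members), 48.9 with 1 (98 members) and 71.3 with 2 or more (158 members). Wider regions hold more sequence, and the median width went from 181 bp in the lowest of 4 height groups to 271 bp in the highest. The part of width in this last count was not tested. The first count used a fixed stretch. These shares are descriptions, with no test.

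The design of the series sets estradiol against vehicle, and the members as a group were compared on it. Their median percentile was 54.8 ± 2.15 in vehicle and 55.7 ± 2.44 after estradiol (SD, n = 3 each), a difference of 0.844 points. An exact two-sided permutation test gave p = 0.7, where 3 against 3 libraries cannot go below 0.1. In replicates 1 and 2, which share a style of peak name, the difference was 1.97 points, and in replicate 3, which has another style and 1 library per group, it was -1.41. The difference between members and single-gene regions was 3.33 ± 2.37 points in vehicle and 3.5 ± 0.633 after estradiol (exact permutation p = 0.9).

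For single regions, 24 members (4.87%) had all 3 estradiol percentiles above all 3 vehicle percentiles, beside 4.09% of all 2863 constant regions. Another 15 (3.04%) had them all below, beside 3.67% of all. Both shares are near those of the background, so the regions named next are the ends of a distribution and not a result about the members.

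**Figure D5:**
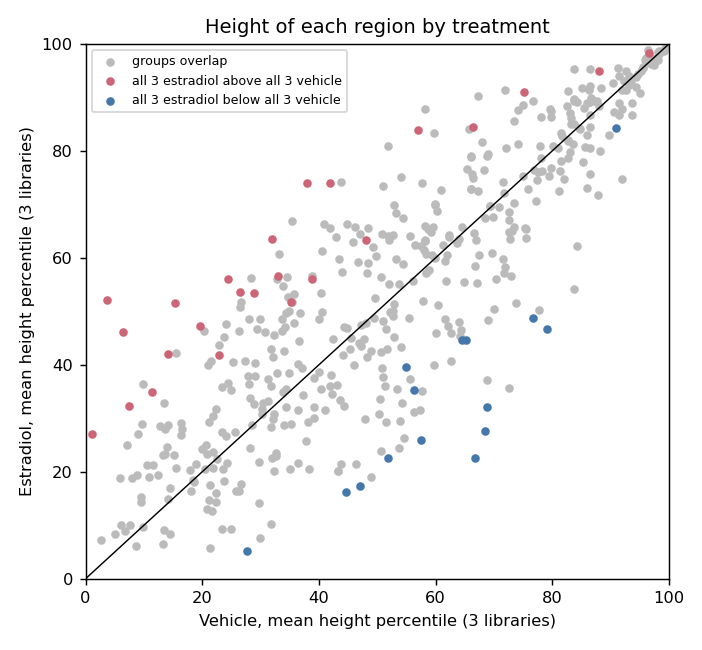
Mean height percentile of each of the 493 members over the 3 vehicle libraries (horizontal) and the 3 estradiol libraries (vertical), with the line of equal values. Coloured points are the 24 members with all estradiol values above, and the 15 with all below, those of vehicle, and the grey points, whose groups overlap, lie on both sides of the line.

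Vmac/Ndufa11, whose second gene encodes a complex I subunit, had 6, 6 and 9 fragments in vehicle and 10, 15 and 14 after estradiol. Its percentiles were 6.2, 1.48 and 3.37 against 43.8, 60.3 and 52.3, a mean difference of 48.5 points. Micos13/Rpl36, at a mitochondrial inner membrane organizer and a ribosomal protein gene, had 5, 8 and 11 fragments against 14, 13 and 11. Its percentiles were 39.6 points higher on average. Ndufa4/Phf14, Med22/Rpl7a and Eif2b4/Snx17 followed, with 36.4, 35.9 and 32 points. Genes of the cytosolic ribosome or of respiration stood beside 4 of these 5 regions, a remark made after their names were seen and not tested. Most regions of those lists overlapped between groups. Of the cytosolic ribosome regions 3 of 10 had all estradiol percentiles above, and of the oxidative phosphorylation regions 2 of 8, with 0 below in either list. Of all 2863 constant regions, 4.09% were above and 3.67% below. The list counts include the very regions that prompted the remark, so they add no separate evidence for it.

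In the other direction, Bop1/Hsf1, at a ribosome biogenesis gene and the heat shock transcription factor, had 10, 14 and 17 fragments in vehicle and 6, 10 and 8 after estradiol. Its mean difference was -44.1 points. Senp8/Myo9a, at a NEDD8 protease and a myosin, had 10, 15 and 17 against 8, 8 and 10, a difference of -40.9 points. Vps28/Tonsl, Nop14/Grk4 and Rffl/Rad51d followed, with -36.7, -32.4 and -31.6 points. In the raw fragments, the 2 groups touched or overlapped at all of these 10 regions except Vmac/Ndufa11 and Ndufa4/Phf14. At Micos13/Rpl36, for example, both vehicle 3 and estradiol 3 had 11. The call rests on ranks within libraries of different depth, and on counts as low as 5.

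Of the 7 members near 3 genes, the highest was Rspry1/Psme3ip1 (chr8:94601653-94601985), with 15, 38 and 84 fragments in vehicle and 17, 37 and 77 after estradiol. Another, Trmt112/Prdx5 (chr19:6909936-6910129), is also near Esrra, the gene of an orphan receptor related to ERα, and had 8, 10 and 9 against 7, 11 and 10. Both overlapped between groups.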

How the data were processed

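The data are peak lists from 6 ERα CUT&RUN libraries, 3 vehicle and 3 estradiol. Per the submitters' processing notes, the authors used MACS2, cutadapt and Bowtie2, along with deepTools, SAMtools and Picard, on build mm10 (no versions or roles given). Whether a control library was used, and how reads with several matches were placed, are not given in the sources at hand. Per the names in the deposited lists, each list was called on 1 library at q 0.01. For each peak the deposited lists give a score (10 times the −log10 q-value, rounded down), a fold enrichment at the summit (a ratio to the caller's background), −log10 p- and q-values and the summit position. These are the authors' own values: −log10 q ranked peaks within a list, fold and p gave the summit fragments, and summit positions gave distances.

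Peaks overlapping by 1 bp or touching were merged with Python 3.11.15, pandas 2.3.3 and numpy 2.4.6. Genes were the RefSeq protein-coding genes of GRCm38.p6. The orientation of a pair came from the promoter table, which lists starts for 79.9% of genes, and 111 members had no known orientation. Summit fragments were solved from fold and p (pseudocount 1, Poisson tail), and whole numbers fitted the −log10 p of 2958 of 2958 member peaks within 0.0005. The median summit over the 6 libraries was used for distances. Exact permutation tests were run over libraries with scipy 1.17.1, and the scripts were tested on simulated data. Intervals are exact (Clopper-Pearson), at 95%.

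Named regions are the 12 highest and 5 lowest members by mean percentile, the 5 largest differences in each direction among members whose groups do not overlap, up to 5 near 3 or more genes, and up to 4 per gene list. A few regions that the rule names are not reported here. One estrogen-induced name (Wisp2) was not in the reference, and 0 value columns were left unmatched. Sequences of chromosome 18 were not read (2 members). The members and the lists were chosen with earlier results of these data known. Alternatives were another q threshold, peak cover, equal list lengths, other distances to gene ends, fold as height, the replicate number as a block, and each library left out.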

Additional observations from a re-analysis of the deposited data

How the results depend on the processing

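The height difference between members and single-gene regions stayed positive under every setting tried. It was 2.73 to 4.51 points with 1 library left out, where p was 0.0625, the smallest that an exact test of 5 libraries can give. A stricter rule that peaks cover at least 50% of the region left 197 members, of which 15 had groups without overlap, beside 6.96% of all constant regions there. The head-to-head share was 84% under that rule, 85.2% with gene ends within 500 bp and 71% within 2 kb. The estradiol minus vehicle difference was -0.639 to 2.68 points with 1 library left out, and changed sign without vehicle 2 (-0.639) or estradiol 2 (-0.387). With the replicate number as a block, the difference was 0.844 points with an exact permutation p of 1. The numbers were not taken as pairs, since deviations of same-numbered libraries correlated at 0.145, 0.0284 and 0.288, not all above 0.1. Estradiol 1 and 3 went best with their own number, and estradiol 2 with vehicle 1. Replicate 3 of each group correlated negatively with replicates 1 and 2 of the other group (-0.213 to -0.0792). Deviations were taken from each group's own mean, so they cancel out within a group. As replicate 3 correlated positively between groups (0.288), its other correlations had to be negative on balance. The main permutation test of estradiol against vehicle took no account of correlations between libraries. The number of members without overlap was 39 with all libraries, where 7.75% of all constant regions had no overlap. It was 75 to 122 with 1 library left out, where 15.5 to 20.4% of all constant regions had none. The rule is easier to meet with fewer libraries. Without vehicle 1, the shortest list, there were 710 members. Depth limits the lowest members, with 4 to 11 fragments at a summit, and a missing peak in a list does not show a lack of signal.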
